A study of Mus musculus with 4 samples.

Results

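Histone and DNA modifying enzymes were followed in sorted medullary thymic epithelial cells (mTECs). The members were taken by gene symbol from the deposited count table: the numbered Hdac, Kat, Tet, Kdm and Setd genes, every gene beginning with Dnmt, and *Ezh1*, *Ezh2*, *Eed*, *Suz12*, *Ep300*, *Crebbp*, *Ehmt1*, *Ehmt2*, *Suv39h1* and *Suv39h2*. They numbered 55 of 23337 gene symbols. The rule uses symbols and no measured value. The table uses older symbols for some of these genes, so that *Setd8* (now *Kmt5a*) was taken while *Myst1* to *Myst4* (now in the Kat family) were not.

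RNA-seq was performed on 4 libraries of mTECs from the thymus of C57BL/6 mice aged 4 weeks, 2 from wild-type mice (WT) and 2 from mice with the genotype given as Sirt6-/- (labelled *Sirt6* cKO). The study made the cKO mice by crossing *Sirt6* loxp/loxp with *Foxn1*-Cre, which is active in thymic epithelium, and took Cre-negative littermates or age-matched mice as WT. Cells were sorted as CD45-, EpCAM+, UEA-1+ and Ly51-. The methods give 2 independent parallel samples per group without saying how many mice each held, so the p-values measure the spread between these samples. The series addresses what SIRT6, a histone deacetylase that uses NAD+, does in mTECs, and the comparison here asks whether the transcripts of other chromatin enzymes differed with it.

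Chromatin enzymes are usually divided into writers, which add acetyl or methyl groups to histones or methyl groups to DNA, and erasers, which remove them. Acetylation of histone tails marks active promoters and enhancers. Methylation of lysine 27 of histone H3 by polycomb repressive complex 2 (PRC2) and of DNA by the DNA methyltransferases goes with silenced genes. mTECs are known for transcribing many genes that otherwise belong to single tissues, in part through AIRE.

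Library totals ran from 61102704 to 65907745 counts. All 55 members had counts in every library and all 55 passed the filter on low counts, with which 18547 genes were tested. Counts of *Sirt6* itself were 882 in cKO 1 and 835 in cKO 2 against 622 in WT 1 and 755 in WT 2. Neither cKO library was below the WT libraries (log2 fold change 0.37 ± 0.32 (SE), adjusted p = 0.8, edgeR). The study reports that *Sirt6* was inactivated, with a western blot of cultured thymic epithelial cells and quantitative PCR of sorted mTECs and cortical epithelial cells. The counts used here cover the whole gene, and the floxed exons were not analysed. The groups are therefore named by their labels, and cKO 1 and cKO 2 stand for the cKO-labelled libraries. Markers of mature mTECs were high in every library: *Aire* was measured at 559.6 CPM in cKO 1 and 663 in cKO 2 against 351 in WT 1 and 428 in WT 2 (CPM are counts scaled to library size with the TMM factors of edgeR).

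Within a gene the levels are given as CPM, and between genes as TPM, which take transcript length into account. Mean TPM over the 4 libraries ranged from 1.64 for *Setd7* to 222 for *Hdac1*. The median member had 22.9 TPM and the median gene tested 10.9 TPM, and 42 of the 55 members lay above 10 TPM. The most abundant members in TPM after *Hdac1* were *Kdm2b* (102), *Hdac2* (90.1), *Eed* (85.1), *Setd3* (71.1), *Kdm1b* (68.9) and *Dnmt1* (62.6). Together the members took 0.300% and 0.312% of the counts in WT 1 and WT 2, and 0.348% and 0.334% in cKO 1 and cKO 2.

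Few members differed between the labelled groups at an unadjusted p, and none passed an adjusted p of 0.05 in edgeR. In that fit 5 of 55 members were higher in the cKO-labelled libraries at an unadjusted p of 0.05, against 5.27% of all genes tested. These were *Kdm2b*, *Kdm5d*, *Hdac9*, *Kdm1b* and *Dnmt3a*. No member was lower at that threshold, against 3.32% of all genes. The adjusted p of all 5 was 0.541, and 0.00539% of genes tested passed an adjusted p of 0.05. DESeq2 placed 7 members higher (5.8% of all genes) and 1 lower (4.38%) at the unadjusted p, and 1 member, *Kdm2b*, passed its adjusted p, against 1.83% of genes. A two-sided exact permutation test of 2 libraries against 2 cannot go below p = 0.333.

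Over the 55 members the median log2 fold change was 0.15, and 34 of 55 lay above 0. Over all genes tested the median was -0.0047 and 49.6% lay above 0. Both cKO-labelled libraries lay above both WT libraries for 19 members (34.5%), against 21.6% of all genes. Both lay below for 7 members (12.7%), against 20.3%. Members differed by a median of 0.41 on the log2 scale between the WT replicates, 0.33 between the cKO replicates and 0.42 between the groups. Over all genes tested these medians were 0.46, 0.41 and 0.40. The group difference compares means of 2 libraries and the replicate difference compares single libraries, so their sizes are not directly comparable. In 7 members the replicates of 1 group lay over 2-fold apart, and the same held for 35.1% of all genes tested. With library size alone as scaling, 721 genes were higher and 838 lower in place of 977 and 615, and the median of the members was 0.059 against -0.093 for all genes, with 31 of 55 above 0.

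**Figure D1:**
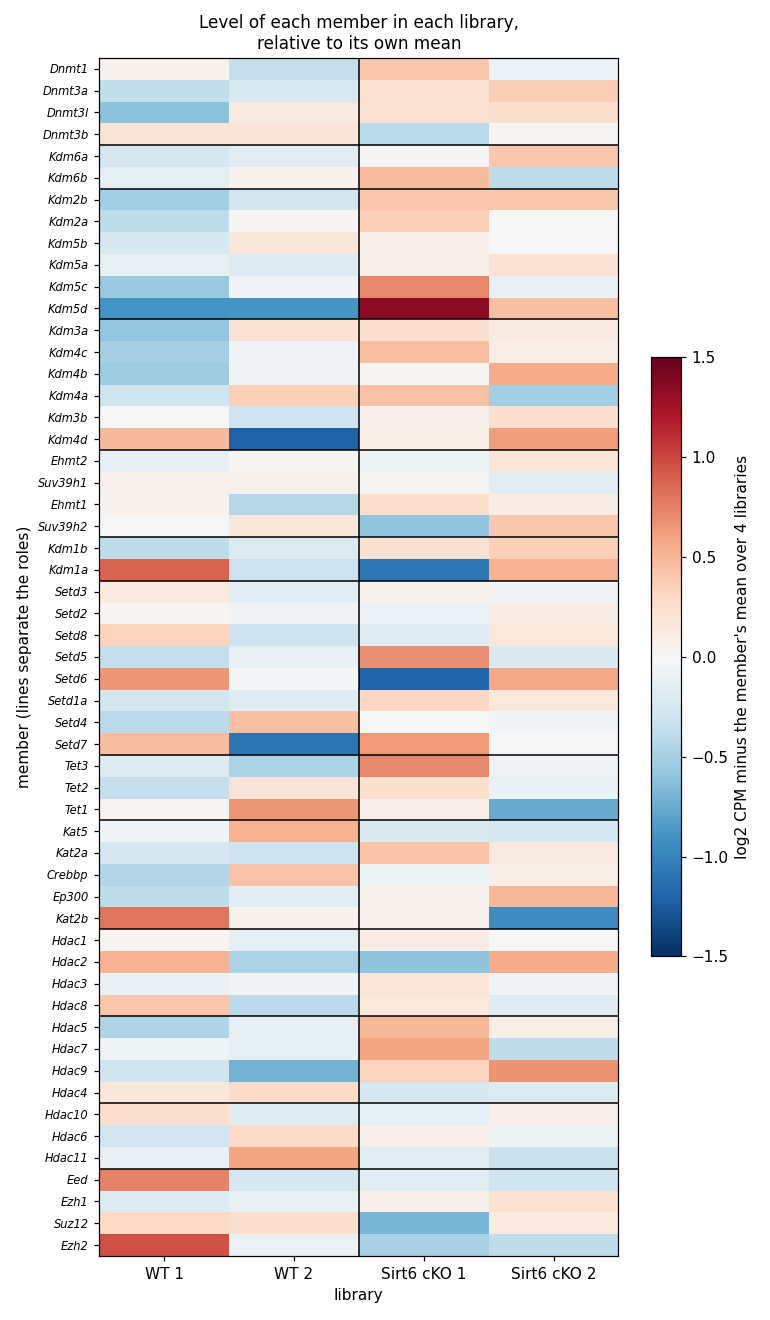
Level of each of the 55 members in each library, as log2 CPM minus the mean of that member over the 4 libraries, with colours capped at 1.5 in both directions and black lines between roles and between groups. *Kdm5d*, *Kdm2b*, *Kdm1b*, *Dnmt3a* and *Hdac9* change colour between the groups, while *Hdac2* and *Kdm1a* are high in WT 1 and cKO 2.

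Transcript length moved with these differences. Of the 27 members whose longest GENCODE transcript exceeded the median of 4853 bases, 23 had a log2 fold change above 0, with a median of 0.36. Of the other 28 members, 11 lay above 0, with a median of -0.06. All 5 members past the unadjusted p were among the longer ones. Across the 55 members the Spearman correlation of log2 fold change with transcript length was 0.42, where the points share the same 4 libraries. By the length that counts per TPM imply, it was 0.40 for the members and 0.24 for all genes tested. Deviations from the members' means correlated with transcript length at -0.39 in WT 1, -0.04 in WT 2, 0.43 in cKO 1 and -0.0046 in cKO 2. When the length trend of each library was removed, a step chosen after seeing the data, *Kdm2b*, *Hdac9* and *Kdm5d* stayed past the unadjusted p. *Kdm1b* and *Dnmt3a* did not, and *Ezh2* and *Tet1* passed as lower. Of all genes tested, 3.74% were higher and 3.65% lower at that threshold in the same fit. The median of the members was then 0.055, and that of all genes was -0.02. Whether RNA quality or library preparation set these trends was not tested.

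Of the demethylases, the Kdm2 and Kdm5 families held the member with the smallest p. All 6 had a log2 fold change above 0, although *Kdm5b* did not with library size alone (median 0.51), and 2 passed the unadjusted p. *Kdm2b* encodes a demethylase of lysine 36 of histone H3 with a CXXC domain that brings a variant polycomb repressive complex 1 to CpG islands. Its CPM was 217 in cKO 1 and 216 in cKO 2 against 114 in WT 1 and 135 in WT 2. The groups did not overlap, and the cKO libraries were nearly equal (124 ± 15.1 in WT and 216 ± 0.342 in cKO, mean ± SD, n = 2). The log2 fold change was 0.80 ± 0.18 (SE), or 1.74-fold, with an unadjusted edgeR p of 0.00569, and DESeq2 gave an adjusted p of 0.0362. *Kdm2b* was past the unadjusted p in all 9 other fits of the 4 libraries (log2 fold change 0.65 to 0.80) and with any 1 library left out (0.66 to 0.93).

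The *Kdm2b* gene lies on chr5:122870665-122989823 (mm10, minus strand), and 627 bases of its exons (5.77%) overlap exons of *Rnf34* on the other strand. Of the 50-base words of its longest transcript, 23.8% also occur in transcripts of other genes. *Rnf34* was measured at 45 CPM in cKO 1 and 42.9 in cKO 2 against 51.6 in WT 1 and 49.5 in WT 2 and its values ran the other way from those of *Kdm2b*. The strand setting of the counting is not given in the sources used here, so reads in the shared bases cannot be assigned. *Kdm1b* is on chr13:47043499-47085279 (plus strand), where 505 exon bases (9.19%) overlap *Dek* on the other strand, and *Dek* was measured at 140.1 CPM in cKO 1 and 104 in cKO 2 against 170.0 in WT 1 and 103 in WT 2.

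Promoters of 300 bases (250 before and 50 after the start) came from the RefSeq annotation of GRCm38.p6, in which 47 of 55 members matched. The kappaB motif was searched on both strands as GGGRNNYYCC (R is A or G, Y is C or T, N is any base), because NF-kappaB drives mTEC maturation. It was found in 7.14% of the members' promoters and in 8.46% of all 32851 promoters. The members' promoters held a median of 22.5 CpG dinucleotides, against 7 in all promoters. The members with a match were *Kdm2b*, *Kdm1b*, *Dnmt3b* (3 matches, log2 fold change -0.37), *Kdm5b* (0.06) and *Suv39h2* (-0.10), so that carriers of the motif lay on both sides of 0. The windows of 30 bases around it are shown for the carriers past the unadjusted p, with the match in capitals, for *Kdm2b* (chr5:122988507-122988536, minus strand) and *Kdm1b* (chr13:47043492-47043521, plus strand).
Kdm1b: ggcgagcgccGGGACCCTCCtgctccctgg
Kdm2b: ggagtggtggGGGAGTCTCCttaggaagtg
*Kdm2b* has 4 annotated starts in this table, and the match lies at 1 of them. A match is a description of the sequence.

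*Kdm5d*, the Y-linked member of the family that removes methyl groups from lysine 4 of histone H3, had the largest fold change of all members and one of the lowest levels (2.5 TPM). Its counts were 770 in cKO 1 and 441 in cKO 2 against 177 in WT 1 and 173 in WT 2. The 2 WT libraries were nearly equal and both cKO libraries lay above them (log2 fold change 1.86 ± 0.48, unadjusted edgeR p of 0.0106). Other Y-linked genes were taken as a list after their values were seen, and all 3 were highest in cKO 1. *Ddx3y* had 14996 counts in cKO 1 and 6083 in cKO 2 against 3180 in WT 1 and 3831 in WT 2. *Eif2s3y* had 1887 counts in cKO 1 and 1549 in cKO 2 against 681 in WT 1 and 804 in WT 2, and *Uty* had 3209 in cKO 1 and 723 in cKO 2 against 388 in WT 1 and 736 in WT 2, with cKO 2 within the range of WT once scaled to library size. Per 100 counts of these 3 genes, *Kdm5d* took 4.17 in WT 1, 3.22 in WT 2, 3.83 in cKO 1 and 5.28 in cKO 2, so that the ratio spread far less than the counts themselves. *Xist*, the RNA that coats the inactive X chromosome of females, had 16 counts in cKO 1 and 6390 in cKO 2 against 4154 in WT 1 and 5658 in WT 2. Thus WT 1, WT 2 and cKO 2 held both Y-linked RNA and *Xist*, while cKO 1 was nearly without *Xist*. Sex of the mice is not among the labels, and the mix of sexes and the genotype cannot be told apart for *Kdm5d*. Without cKO 1 its log2 fold change was 1.35 and with limma on log2(TPM + 0.1) it was 1.7, and in neither did it pass the unadjusted p.

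The X-linked members were *Kdm5c*, *Kdm6a*, *Hdac6*, *Hdac8* and *Suv39h1*, and their median log2 fold change was -0.02. *Kdm5c*, the X-linked relative of *Kdm5d*, was measured at 98.4 CPM in cKO 1 and 55.8 in cKO 2 against 40.5 in WT 1 and 57.5 in WT 2. It was highest in the library with almost no *Xist*, and the groups overlapped (log2 fold change 0.65 ± 0.36, adjusted p = 0.671, edgeR). Without cKO 2, *Kdm5c* was past the unadjusted p at 0.99. *Kdm6a*, a demethylase of lysine 27 of histone H3, reached 72.1 CPM in cKO 1 and 94.3 in cKO 2 against 59.9 in WT 1 and 63.3 in WT 2 and was highest in cKO 2. Without the members on X and Y, 49 members were left, with a median of 0.15 and 4 past the unadjusted p.

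**Figure D2:**
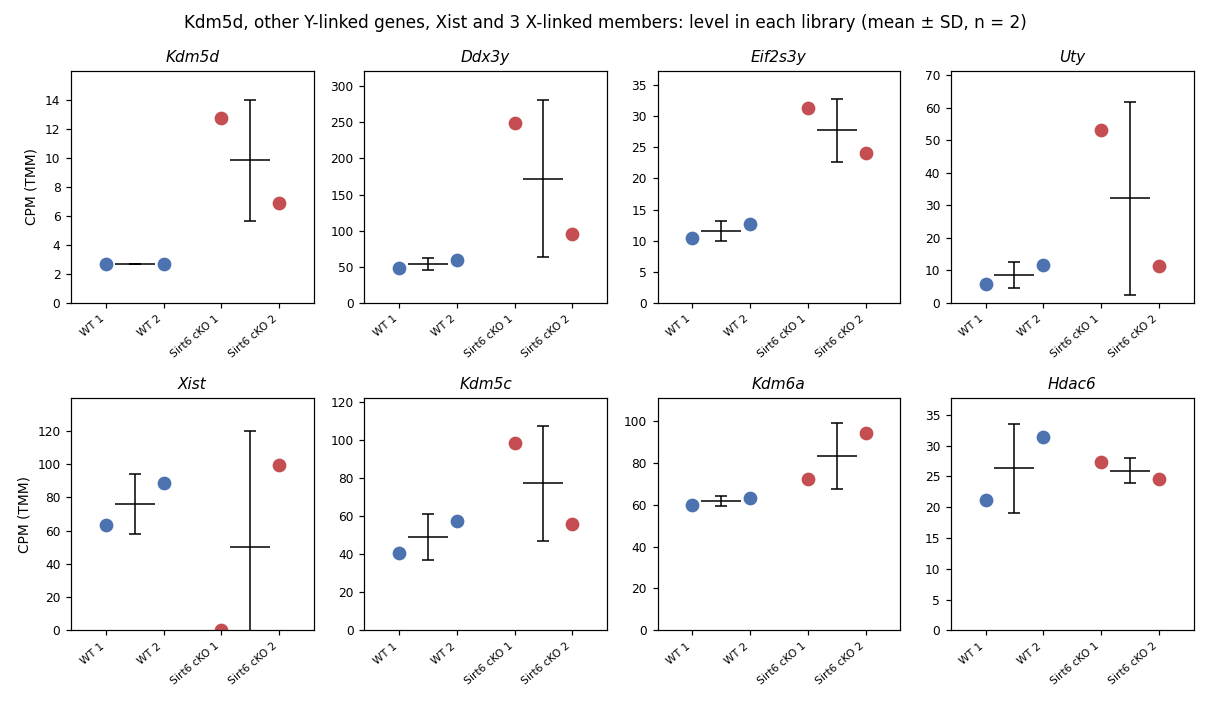
CPM in each library for *Kdm5d*, 3 other Y-linked genes, *Xist* and 3 X-linked members, with points for libraries (blue for WT, red for cKO) and black bars for the mean ± SD (n = 2). *Kdm5d* and the other Y-linked genes are highest in cKO 1, *Uty* of cKO 2 lies among the WT libraries, and in cKO 1 *Xist* is 0.265 CPM against 63.4 to 99.6 CPM elsewhere.

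Of the other genes of these families, *Kdm2a* was the second most abundant in TPM (52.6) and had a log2 fold change of 0.36 ± 0.23, with WT 2 (174 CPM) and cKO 2 (172 CPM) almost equal. *Kdm5b* had the lowest log2 fold change (0.06 ± 0.21), which turned below 0 with library size alone, with upper quartile normalization and without the length trends. *Kdm5a* was 203 and 224 CPM in the cKO-labelled libraries and 179 and 169 in WT. Its groups did not overlap, and its log2 fold change was 0.30 ± 0.17 (adjusted p = 0.683, edgeR).

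Among the LSD1 family, which removes methyl groups with the cofactor FAD, the 2 members differed in pattern. *Kdm1b* (LSD2), which acts on lysine 4 of histone H3 and is needed for imprinting in oocytes, was measured at 178 CPM in cKO 1 and 197 in cKO 2 against 118 in WT 1 and 133 in WT 2. Its groups did not overlap, and it was 1.49-fold higher in the cKO-labelled libraries (log2 fold change 0.58 ± 0.18, unadjusted edgeR p of 0.0207). Without WT 1 it was 0.47, without cKO 2 it was 0.49 and without the length trends 0.36, and in each of these it missed the threshold. *Kdm1a* (LSD1), the founding member, was 9.96 CPM in cKO 1 and 30.3 in cKO 2 against 38.9 in WT 1 and 16.9 in WT 2. Its replicates lay over 2-fold apart in both groups, WT 1 and cKO 2 being high, and the groups overlapped.

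In the Kdm3 and Kdm4 families, which act on lysine 9 of histone H3, 5 of 6 members had a log2 fold change above 0 (median 0.42) and none passed the unadjusted p. *Kdm4b* had the largest fold change (0.60 ± 0.30) and was 57.8 and 83.5 CPM in the cKO-labelled libraries and 39.1 and 54.4 in WT, without overlap. *Kdm4c* was 99.5 and 77.9 CPM in the cKO-labelled libraries and 51.2 and 69.9 in WT, also without overlap. *Kdm4a* had the lowest (-0.02 ± 0.42), with WT 2 and cKO 1 at 39.1 and 41.5 CPM and the other two libraries at 25.0 and 21.6 CPM. *Kdm3a*, the most abundant in TPM (51.1), was low in WT 1 alone (129.8 CPM in cKO 1 and 120.4 in cKO 2 against 73.4 in WT 1 and 128 in WT 2), and without WT 2 it was past the unadjusted p at 0.77. *Kdm4d*, the least abundant (4.67 TPM), was 5.5 and 7.9 CPM in the cKO-labelled libraries and 7.15 and 2.2 in WT, and it passed at 1.58 without WT 1. *Kdm6b*, the other demethylase of lysine 27, ranged from 46.6 CPM in cKO 2 to 84.3 CPM in cKO 1, on both sides of the WT libraries.

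**Figure D3:**
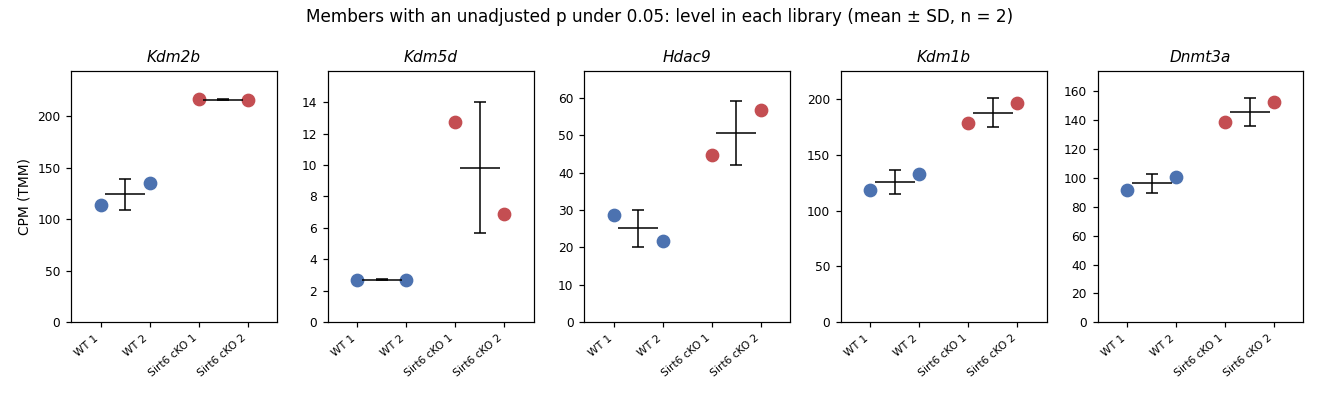
CPM of the 5 members with an unadjusted p under 0.05, ordered by p, with a point for each library (blue for WT, red for cKO) and black bars for the mean ± SD (n = 2). In all 5 both cKO libraries lie above both WT libraries, and the cKO libraries of *Kdm5d* lie the farthest apart relative to their level.

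Deacetylases were measured in 11 genes, of which 1 passed the unadjusted p. Class I holds nuclear deacetylases, among them those of the Sin3, NuRD, CoREST and NCoR complexes. *Hdac1* was the most abundant member of all, at 239 TPM in cKO 1 and 222 in cKO 2 against 224 in WT 1 and 203 in WT 2, and the groups overlapped (log2 fold change 0.12 ± 0.17). In GENCODE M21, 58.7% of the 50-base words of its longest transcript also occur in other transcripts, pseudogenes among them, so its level is less certain. *Hdac2* was 50.6 CPM in cKO 1 and 113 in cKO 2 against 110.2 in WT 1 and 55.6 in WT 2, and as for *Kdm1a* the high libraries were WT 1 and cKO 2. *Hdac3* and *Hdac8*, the least abundant of the class (16.7 TPM), had log2 fold changes of 0.15 ± 0.26 and -0.07 ± 0.40.

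Class IIa deacetylases shuttle between cytoplasm and nucleus and bind MEF2 factors. *Hdac9* was 44.6 CPM in cKO 1 and 56.7 in cKO 2 against 28.7 in WT 1 and 21.6 in WT 2. It was 2.01-fold higher in the cKO-labelled libraries, without overlap (25.1 ± 4.98 CPM in WT and 50.6 ± 8.52 CPM in cKO, mean ± SD, n = 2), and its log2 fold change was 1.01 ± 0.28 with an unadjusted edgeR p of 0.0144. It stayed past the threshold in all 9 other fits of the 4 libraries (0.81 to 1.01), and missed it without WT 2 (0.82) and without cKO 2 (0.81). *Hdac5*, the most abundant of the class (30.6 TPM), was 72.7 and 55.1 CPM in the cKO-labelled libraries and 37.5 and 46.7 in WT, without overlap and short of the threshold (log2 fold change 0.60 ± 0.26). *Hdac4*, the least abundant (11.2 TPM), lay the other way at 16.9 and 17.3 CPM in the cKO-labelled libraries and 22.3 and 24.2 in WT, with a log2 fold change of -0.45 ± 0.27 (adjusted p = 0.709, edgeR). *Hdac7* reached 77.0 CPM in cKO 1 and 39.0 CPM in cKO 2, around WT values of 48.6 and 46.4 CPM.

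Classes IIb and IV (*Hdac6*, *Hdac10* and *Hdac11*) had log2 fold changes below 0 in all 3 members, although that of *Hdac6* was 0.0025 with the replicate block, from -0.53 for *Hdac11* to -0.02 for *Hdac6*, the cytoplasmic deacetylase of tubulin. *Hdac10* was the most abundant of them at 22.9 TPM. *Hdac11* was 13.4 CPM in cKO 1 and 11.9 in cKO 2 against 14 in WT 1 and 22.6 in WT 2. Its cKO libraries lay just below WT 1, while WT 2 stood well above the other 3.

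Of the 5 acetyltransferases, none passed the unadjusted p in edgeR. *Kat2a* (GCN5), the catalytic subunit of the SAGA complex, was 55.1 and 44.9 CPM in the cKO-labelled libraries and 34.3 and 32.8 in WT, without overlap, and had the largest fold change (0.58 ± 0.24). In DESeq2 it was past the unadjusted p (0.0474). Its close relative *Kat2b* (PCAF), the least abundant of the role (3.03 TPM), had the lowest (-0.82 ± 0.55), at 5.72 CPM in cKO 1 and 2.87 in cKO 2 against 9.52 in WT 1 and 5.67 in WT 2 with overlapping groups. *Kat5* (TIP60), the most abundant (44.1 TPM), was 33 and 32 CPM in the cKO-labelled libraries and 37.2 and 55 in WT, and it was lower at the unadjusted p only when WT 1 was left out (-0.78). Its exons share 426 bases with *Rnaseh2c* on the other strand. The coactivators *Ep300* and *Crebbp* differed from each other: *Ep300* had both cKO libraries above WT (log2 fold change 0.56 ± 0.29), and *Crebbp* was lowest in WT 1 and highest in WT 2 (-0.05 ± 0.33).

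Of the 4 DNA methyltransferases, 1 was higher in the cKO-labelled libraries at the unadjusted p, and *Dnmt1* and *Dnmt3l* had log2 fold changes above 0 (0.32 ± 0.25 and 0.42 ± 0.46) without passing it. *Dnmt3a*, which sets methylation on DNA that had none, was 139 CPM in cKO 1 and 152 in cKO 2 against 91.6 in WT 1 and 101 in WT 2. It was 1.51-fold higher without overlap (96.3 ± 6.56 CPM in WT and 146 ± 9.63 CPM in cKO, mean ± SD, n = 2; log2 fold change 0.60 ± 0.19, unadjusted edgeR p of 0.021). Leaving out WT 1 (0.50), cKO 1 (0.67) or cKO 2 (0.51) took it out of the threshold, as did removing the length trends (0.35) and both limma fits on TPM. Its relative *Dnmt3b* was 8.68 and 11.6 CPM in the cKO-labelled libraries and 13.1 and 13.1 in WT, with both cKO libraries below WT (log2 fold change -0.37 ± 0.33). The TPM of *Dnmt3a* over that of *Dnmt3b* was 3.05 in WT 1, 3.38 in WT 2, 6.97 in cKO 1 and 5.75 in cKO 2, a ratio that was formed after the values were seen. *Dnmt3b* shares 11.5% of its 50-base words with other transcripts, *Dnmt3c* among them.

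*Dnmt1*, which copies methylation onto new DNA strands, was the most abundant of the role (62.6 TPM) and was 217 CPM in cKO 1 and 154 in cKO 2 against 169.9 in WT 1 and 128 in WT 2, with the first library of each group above the second. *Dnmt3l*, the cofactor without enzymatic activity, was 6.53 CPM in cKO 1 and 6.64 in cKO 2 against 3.67 in WT 1 and 6.16 in WT 2. It was low in WT 1 and similar in the other 3 libraries. Its exons overlap those of *Aire* on the other strand by 67 bases (2.24%), and *Aire* was higher in the cKO-labelled libraries at the unadjusted p only (log2 fold change 0.65 ± 0.18, adjusted p = 0.541, edgeR).

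TET dioxygenases oxidize methylcytosine and so open the way to demethylation. *Tet3*, the most abundant (13.3 TPM), was 103 CPM in cKO 1 and 60.7 in cKO 2 against 54.9 in WT 1 and 45.4 in WT 2. Both cKO libraries lay above WT, cKO 1 by far the most, and the log2 fold change was 0.71 ± 0.32 (adjusted p = 0.622, edgeR). It passed the unadjusted p in DESeq2 (0.0463) and without cKO 2 (1.03). *Tet1*, the least abundant (3.08 TPM), was 19.6 CPM in cKO 1 and 11 in cKO 2 against 19 in WT 1 and 29.4 in WT 2 with overlapping groups, and it passed as lower only without the length trends (-0.94). *Tet2* lay between them (0.14 ± 0.30).

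PRC2 was the role with the lowest median log2 fold change (-0.52), and its members differed in direction. *Ezh2*, the catalytic subunit of dividing cells, was 18.3 CPM in cKO 1 and 19.7 in cKO 2 against 49.9 in WT 1 and 24 in WT 2. WT 1 stood over 2-fold above WT 2, both cKO libraries lay below both WT libraries, and the log2 fold change was -0.96 ± 0.41 (SE), the lowest of all members, with an adjusted p of 0.605 (edgeR). It was past the unadjusted p in 5 of 9 other fits of the 4 libraries, DESeq2 (-0.97) and upper quartile normalization (-1.04) among them. Without WT 1 it was -0.36 and without WT 2 it was -1.39, so that its size rested on WT 1. *Eed*, which binds the methylated histone tail, was 67.6 CPM in cKO 1 and 62.1 in cKO 2 against 127 in WT 1 and 63.5 in WT 2 and followed WT 1 alone (0.0042 without WT 1, and -0.97 and past the unadjusted p without WT 2). *Suz12*, the scaffold of the complex, was 31.8 CPM in cKO 1 and 56.7 in cKO 2 against 63.1 in WT 1 and 60.7 in WT 2, with cKO 1 standing below the other 3 (-0.98 without cKO 2, past the unadjusted p).

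*Ezh1*, the catalytic subunit that prevails in resting cells, was 95.8 CPM in cKO 1 and 106 in cKO 2 against 79.6 in WT 1 and 84.6 in WT 2, without overlap and with a log2 fold change of 0.30 ± 0.19 (adjusted p = 0.718, edgeR). The TPM of *Ezh2* over that of *Ezh1* was 0.991 in WT 1, 0.449 in WT 2, 0.302 in cKO 1 and 0.292 in cKO 2. The ratio was thus lower in both cKO libraries, and WT 2 lay nearer to them than to WT 1. It was not planned, and it restates the levels of *Ezh2* and *Ezh1* given above.

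**Figure D4:**
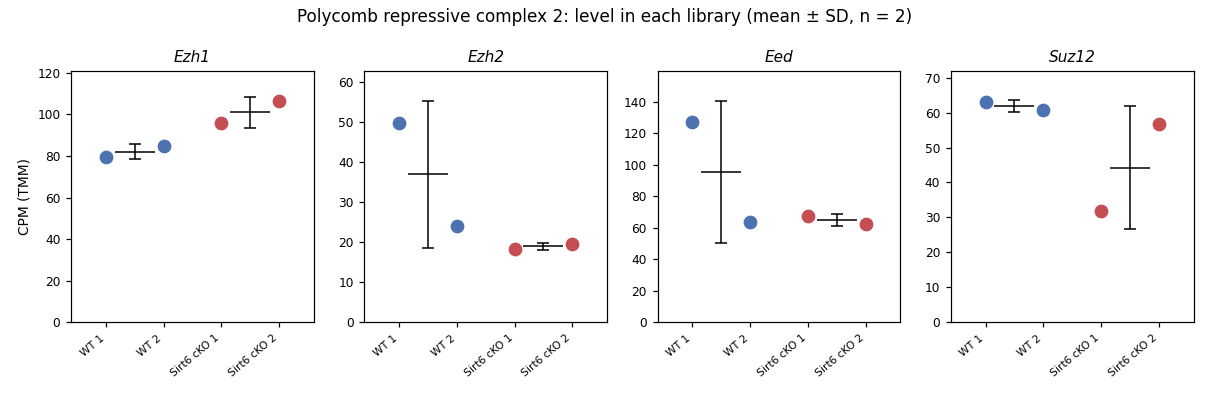
CPM of the 4 PRC2 members in each library, with points for libraries (blue for WT, red for cKO) and black bars for the mean ± SD (n = 2). *Ezh2* and *Eed* stand high in WT 1, *Suz12* stands low in cKO 1, and *Ezh1* is higher in both cKO libraries.

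Enzymes known to be high in dividing cells were set beside a list of 28 proliferation genes. The summed CPM of that list was 2561 in cKO 1 and 1544 in cKO 2 against 2752 in WT 1 and 1575 in WT 2, with the first library of each group high and the second low, and none of its genes passed the unadjusted p. *Dnmt1* followed this order. *Hdac1* did too within a narrow range, *Suv39h1* hardly varied (38.7 CPM in cKO 1 and 34.4 in cKO 2 against 40.2 in WT 1 and 40.1 in WT 2), *Hdac2* was high in WT 1 and cKO 2, and *Ezh2* was low in cKO 1 where the list was high. The part of dividing cells in these values was not tested.

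An E2F-type motif, the letters TTTCCCGC, TTTCGCGC, TTTGCCGC or TTTGGCGC on both strands, was searched in the same promoters because E2F factors drive genes of the S phase. It was found in 7.14% of the members' promoters and in 2.26% of all 32851. Each of these words holds a CpG, and the members' promoters held a median of 22.5 CpG against 7 in all promoters. The part of CpG content in these shares was not tested. The windows of 30 bases around the matches are shown for the members that held one, since 4 of them were set beside proliferation or belong to PRC2, with the match in capitals. They are on chr9:20952824-20952853 and chr9:20952574-20952603 for *Dnmt1*, chr6:47595009-47595038 for *Ezh2*, chrX:8074407-8074436 for *Suv39h1* and chr11:100712508-100712537 for *Kat2a* (minus strand), and on chr11:79992876-79992905 for *Suz12* (plus strand), all in GRCm38.p6.
Dnmt1 (upstream): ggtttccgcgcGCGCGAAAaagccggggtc
Dnmt1 (downstream): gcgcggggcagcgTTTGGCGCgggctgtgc
Ezh2: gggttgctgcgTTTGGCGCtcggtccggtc
Suz12: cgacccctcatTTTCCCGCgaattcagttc
Suv39h1: ggaaggccggcGCGGCAAAcgtgggggccg
Kat2a: aaggatgggaaGCGGCAAAggaagactacg
*Dnmt1* has 3 annotated starts in this table, and its windows belong to 1 of them. The promoter of *Eed* held none of these letters.

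Methyltransferases of lysine 9 of histone H3, which lay the mark of heterochromatin, did not pass the unadjusted p in any of the 4 members. *Ehmt2* (G9a), the most abundant (41.1 TPM), had a log2 fold change of 0.11 ± 0.22, and its partner *Ehmt1* was 72.9 and 65.7 CPM in the cKO-labelled libraries and 63.3 and 45.3 in WT, without overlap (0.35 ± 0.26). *Suv39h1* had the lowest (-0.13 ± 0.24), and *Suv39h2*, the least abundant (5.98 TPM), ranged from 7.39 CPM in cKO 1 to 14.7 CPM in cKO 2.

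Of the 8 SET domain proteins, none passed. *Setd3*, the most abundant (71.1 TPM), is a methyltransferase of actin and differed least (0.01 ± 0.21). *Setd2*, which trimethylates lysine 36 of histone H3 behind RNA polymerase, was 51.7 CPM in cKO 1 and 59.4 in cKO 2 against 56.2 in WT 1 and 52.8 in WT 2, within a narrow range across both groups. *Setd5* had the largest fold change (0.53 ± 0.36), with cKO 1 apart (58.2 CPM against 28.4 to 33.6 CPM in the other 3). *Setd6* had the lowest (-0.42 ± 0.71), with cKO 1 at 1.99 CPM. *Setd7*, the least abundant (1.64 TPM), had WT replicates over 2-fold apart. *Setd1a* was 16.7 and 15 CPM in the cKO-labelled libraries and 11.1 and 11.9 in WT, without overlap, but 51.8% of its exon bases overlap *Gm49388* on the same strand.

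**Figure D5:**
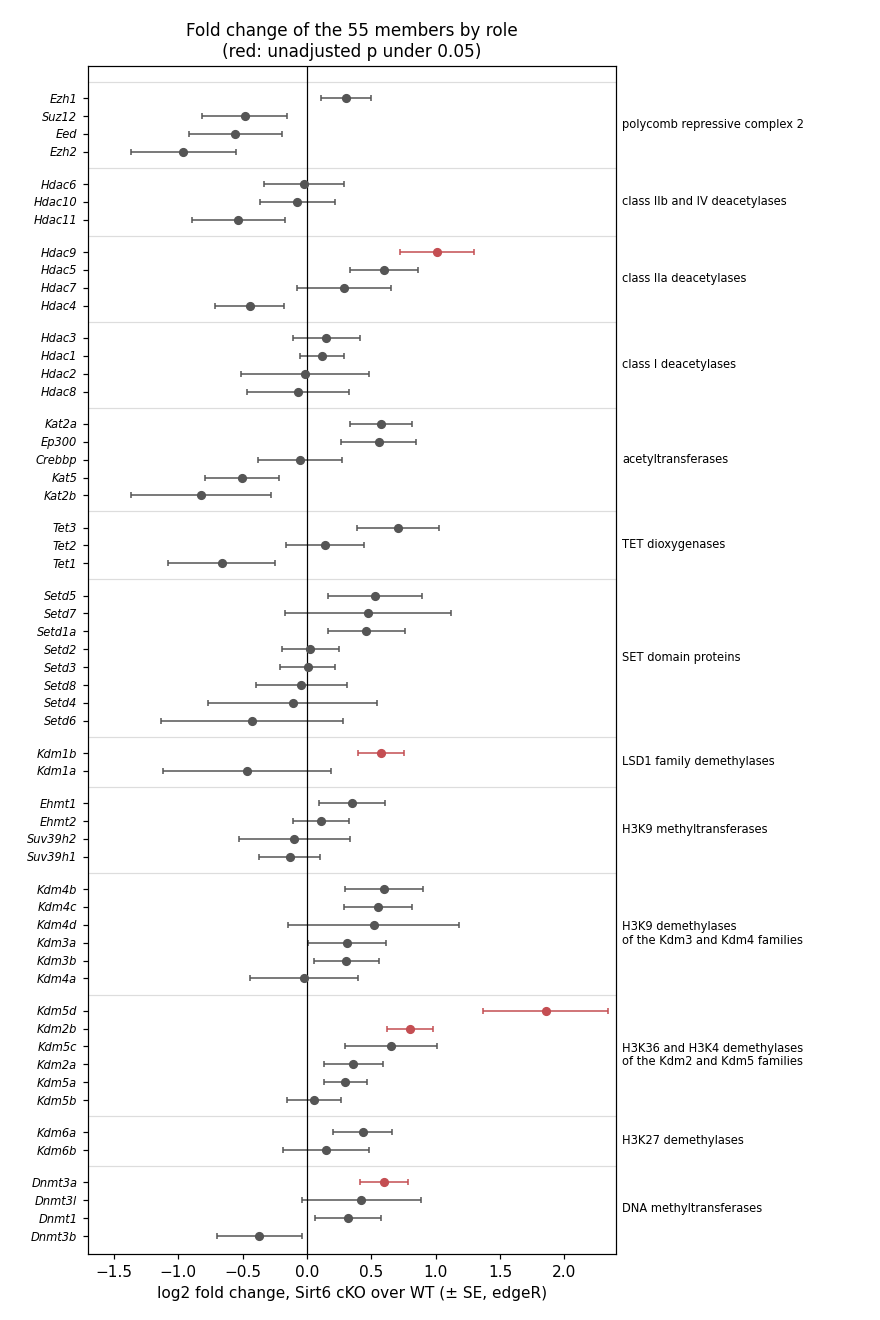
Log2 fold change of each of the 55 members between the cKO-labelled libraries and WT (edgeR, ± SE), grouped by role, with the 5 members past the unadjusted p of 0.05 in red. Values run from -0.96 for *Ezh2* to 1.86 for *Kdm5d*, and all 6 members of the Kdm2 and Kdm5 families lie above 0, although *Kdm5b* was -0.033 with library size alone.

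Patterns that cut across the labels were also counted. In 11 members WT 2 and cKO 1 both lay above WT 1 and cKO 2, among them *Kdm2a*, *Kdm4a*, *Tet1* and *Tet2*. In 7 members, among them *Hdac2*, *Kdm1a* and *Setd6*, the reverse held. The median longest transcript was 6654 bases in the former and 2895 bases in the latter. In 8 members, among them *Dnmt1*, *Eed*, *Hdac1* and *Hdac7*, WT 1 and cKO 1 lay above WT 2 and cKO 2, as the sum of the proliferation list did. *Crebbp*, *Ehmt2* and *Suv39h2* were the 3 members with the opposite order. cKO 1 was the highest library for 20 members, and WT 1 was the lowest for 23. How many of all genes tested had each of these patterns was not counted, so these counts describe the members alone.

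Genes of the same machinery outside the rule were counted in 8 lists with 122 genes tested, of which 7 were higher and 1 lower at the unadjusted p. Of all genes tested, 5.27% were higher and 3.32% lower at that threshold. Among the 19 MLL and other methyltransferases 2 were higher, with *Prdm2* having the smaller p (log2 fold change 1.04 ± 0.35). Of 22 genes of polycomb repressive complex 1 and PRC2 partners only *Phf1* passed (1.42 ± 0.30, CPM of 27.9 and 22.1 in the cKO-labelled libraries and 9.64 and 9.02 in WT). PHF1 binds PRC2 and methylated lysine 36. *Sin3a*, the scaffold of a class I deacetylase complex, was the 1 of 19 corepressor genes that passed (0.89 ± 0.31). Among 19 MYST and SAGA genes, *Ncoa3* (0.73 ± 0.19) and *Myst2* (0.70 ± 0.25), which is now *Kat7*, were higher. *Brd2*, a reader of acetylated histones, was the 1 of 12 bromodomain genes that passed (0.87 ± 0.20). *Mbd3*, a NuRD subunit, was lower and the 1 of 12 genes listed as readers of DNA methylation and their partners (-1.02 ± 0.30). None of 9 arginine methyltransferases, 10 other JmjC proteins or 7 sirtuins passed. All of these had an adjusted p of 0.541 or more in edgeR.

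Cell types other than mature mTECs were followed by their markers, since in bulk samples fewer cells of a type and less RNA per cell cannot be told apart. Of 10 tuft cell markers 6 were lower at the unadjusted p, and their summed CPM was 343 in cKO 1 and 340.0 in cKO 2 against 636 in WT 1 and 728 in WT 2. Markers of macrophages and dendritic cells summed to 2412 CPM in cKO 1 and 2410.4 in cKO 2 against 5287 in WT 1 and 3294 in WT 2, with 3 of 9 lower and *Lyz2* at 1777 CPM in cKO 1 and 1906 in cKO 2 against 4646 in WT 1 and 2814 in WT 2. The sort took CD45- cells. Thymocyte markers summed to 1082 CPM in cKO 1 and 701 in cKO 2 against 1349 in WT 1 and 981 in WT 2 with 1 of 12 lower, and B cell markers to 207 CPM in cKO 1 and 171 in cKO 2 against 212 in WT 1 and 172 in WT 2 with 1 of 6 higher. Of 10 markers of mature mTECs 3 were higher (*Aire*, *Cd80* and *Spib*), and their sum ran from 17773 to 19566 CPM. Of 6 markers of *Ccl21a*-positive mTECs 1 was lower, *Ccl21a* itself (log2 fold change -2.37), while 4 had a log2 fold change above 0. Their sum was 677 CPM in cKO 1 and 593 in cKO 2 against 731 in WT 1 and 1630 in WT 2. Markers of cortical epithelium (799 to 1193 CPM, 2 of 8 higher) and of fibroblasts and endothelium (657 to 751 CPM, none of 9) overlapped between groups in their sums. At most 1 marker of a list was at 0 in a library. The part of these cells in the members' values was not tested.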

How the data were processed

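RNA-seq of sorted mTECs was available for 2 libraries per group, WT and *Sirt6* cKO. Per the methods and the submitters' processing notes, reads were trimmed with Trim Galore, aligned to mm10 with HISAT2 2.1.0 and quantified with StringTie 1.3.3. The authors deposited whole-number counts per gene symbol without normalization, and another file per library with TPM, whose last line, the sum over genes, was left out. The annotation and the strand setting are not given in the sources used here.

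Counts were tested with edgeR 4.0.16 in R 4.3.3 (TMM, filterByExpr at a minimum of 10 per library and 15 in all, glmQLFit and glmQLFTest), with Benjamini-Hochberg adjustment over 18547 genes and a threshold of 0.05. The TMM factors were 1.02, 1.04, 0.966 and 0.973, and the biological coefficient of variation was 0.557. The alternatives were DESeq2 1.42.0, no filter, a filter of TPM over 0.1, other scalings (the upper quartile or the library size), a block on the replicate number, limma 3.58.1 on log2(TPM + 1) and log2(TPM + 0.1), each library left out in turn, where the lone library is assumed to vary like the other group, and, added after seeing the data, removal of each library's loess trend of log2 CPM on length by an offset. The procedure was tested on simulated data that were set to vary less between libraries than the coefficient above. That test does not give its error rates at the variation of these data. Members and lists were chosen with earlier results of these data known. Named were members past the unadjusted p in any fit, those with the highest and lowest TPM and fold change of each role, enzymes known from dividing cells and *Dnmt3l*. Some others, among them *Kdm4c*, *Kdm5a*, *Ep300*, *Crebbp* and *Hdac7*, were named outside these criteria. Of each list of related genes, the one with the smallest p is named, and for lists with 2 past the threshold some are both named. Transcript lengths, exon overlaps and shared 50-base words came from GENCODE M21 (GRCm38, the assembly of mm10), and promoters from RefSeq GRCm38.p6. Tables were made with Python 3.11.15, pandas 2.3.3 and numpy 2.4.6 and figures with matplotlib 3.10.9. Intervals of counting error were not needed at these depths, and no protein sequence was used here.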

Additional observations from a re-analysis of the deposited data

How the results depend on the processing

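Under the 9 other fits of all 4 libraries, 465 of 495 fold changes of single members kept their direction and their side of the threshold. Of the rest, 5 lost the threshold, 8 gained it and 17 changed sign. With 1 library left out, 171 of 220 were kept in this sense, 8 lost the threshold, 8 gained it and 33 changed sign. For the number of members higher in the cKO-labelled libraries, 3 remained past the threshold with limma on log2(TPM + 0.1) and 3 without the length trends, against 5. Of all genes tested, 4.49% and 3.74% were higher in these fits, against 5.27%. For members lower, DESeq2, the TPM filter, upper quartile normalization and library size alone each gave 1 and removal of the length trends gave 2, against 0. Of all genes tested, 4.38%, 3.91%, 4.31%, 4.52% and 3.65% were lower in these fits, in that order, against 3.32%. With DESeq2 1 member passed the adjusted p, against 0 in edgeR. The median log2 fold change of the members was 0.15. It was 0.14 with DESeq2, 0.061 with upper quartile normalization, 0.059 with library size alone, 0.15 with the replicate block, 0.13 with limma on log2(TPM + 1), 0.14 with log2(TPM + 0.1) and 0.055 without the length trends, and 0.13 to 0.25 with 1 library left out. The median deviation of the members had a pooled SD of 0.00409 between replicates. This SD rests on 2 libraries per group and does not measure how precise the median is. The median log2 fold change moved by more than this SD in each of these settings, with the replicate block only just, and the cause was not tested. With upper quartile normalization and library size alone the median of all genes was also lower, at -0.086 and -0.093.

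In fits of all 4 libraries, no value that changed sign passed the threshold. With the replicate block *Crebbp* was 0.0077 and *Hdac6* 0.0025. *Setd3* was -0.0053 with DESeq2. With upper quartile normalization *Kdm5b* was -0.023, *Setd2* -0.051 and *Setd3* -0.075, and with library size alone they were -0.033, -0.061 and -0.080. Without the length trends *Ehmt2* was -0.060, *Hdac2* 0.031, *Hdac8* 0.055, *Kdm5b* -0.18, *Kdm6b* -0.11, *Setd2* -0.22, *Setd3* -0.032 and *Tet2* -0.12. With 1 library left out in turn, the lowest and highest values were -0.45 and 0.45 for *Crebbp*, -0.97 and 0.0042 for *Eed*, -0.046 and 0.24 for *Ehmt2*, -0.27 and 0.13 for *Hdac10*, -0.72 and 0.54 for *Hdac2*, -0.30 and 0.29 for *Hdac6*, -0.28 and 0.68 for *Hdac7*, -0.41 and 0.36 for *Hdac8*, -1.5 and 0.23 for *Kdm1a*, -0.059 and 0.77 for *Kdm3a*, -0.57 and 0.35 for *Kdm4a*, -0.092 and 1.58 for *Kdm4d*, -0.16 and 0.28 for *Kdm5b*, -0.34 and 0.50 for *Kdm6b*, -0.093 and 0.13 for *Setd2*, -0.14 and 0.15 for *Setd3*, -0.50 and 0.38 for *Setd4*, -1.57 and 0.20 for *Setd6*, -0.10 and 1.43 for *Setd7*, -0.33 and 0.29 for *Setd8*, -0.70 and 0.32 for *Suv39h2* and -0.13 and 0.43 for *Tet2*.

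Same-numbered replicates did not deviate together (correlation of deviations from the group means -0.0544 over 18547 genes and -0.282 over the members), so the numbers were not taken as pairs. With the replicate block 5 members were higher and 0 lower at the unadjusted p, as without it, and 697 genes were higher and 449 lower in place of 977 and 615. Every member had over 100 counts in each library.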
